A study of Mus musculus with 18 samples.

Results

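The expression of 9 inducible feedback inhibitors of MAP kinase signaling, Dusp1, Dusp2, Dusp4, Dusp5, Dusp6, Dusp10, Spry1, Spry2 and Spred1, was examined in T cells isolated from mouse melanomas. The genes were selected by symbol from the 37236 genes of the deposited expression table, and all 9 passed the filter on low values that left 11992 genes for testing. The T cells came from tumors of the B16-OVA line, a C57BL/6 melanoma line that carries the model antigen ovalbumin, of which 500000 cells had been injected under the skin, and the tumors were harvested at d14. The mice were C57BL/6 of either the Nr2f6+/+ or the Nr2f6-/- genotype. NR2F6 is an orphan nuclear receptor that acts as a transcriptional repressor in T cells, and the Nr2f6-/- mice lack it in all cells of the host and not in T cells alone. Each mouse received 0.5 mg of antibody against PD-L1, the ligand of the inhibitory receptor PD-1, or of the control antibody IgG2b, given into the peritoneum repeatedly from d3. There were 3 Nr2f6+/+ and 3 Nr2f6-/- samples with IgG2b, and 6 Nr2f6+/+ and 6 Nr2f6-/- samples with anti-PD-L1. CD4 and CD8 beads had been used to enrich the cells, which were combined before the sort for CD3. CD4+ and CD8+ T cells are therefore mixed in unknown proportion in all values.

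T-cell receptor and costimulatory signals activate the kinases ERK, JNK and p38, and the transcripts that these kinases induce include their own inhibitors. Dual-specificity phosphatases of the DUSP family remove the activating phosphates from the threonine and tyrosine of MAP kinases, whereas Sprouty and Spred proteins act upstream and limit the activation of Ras and Raf. In T cells the level of these transcripts is used as a readout of recent MAP kinase activity as well as of the capacity to end it.

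The RefSeq promoter sequences (GRCm38.p6) of 3 of the phosphatases are printed first, since Dusp1 and Dusp5 are the members with the lowest p-values between the antibody groups in Nr2f6+/+ mice and Dusp2 shares a motif with Dusp1. The table used held a promoter for 8 of the 9 members. Each line gives 151 bases on the strand of the gene, from base -200 to base -50 before the annotated start, and capitals mark the full cyclic AMP response element, the CArG boxes and the E-boxes described beneath.

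Dusp1 (chr17:26508522-26508672, minus strand): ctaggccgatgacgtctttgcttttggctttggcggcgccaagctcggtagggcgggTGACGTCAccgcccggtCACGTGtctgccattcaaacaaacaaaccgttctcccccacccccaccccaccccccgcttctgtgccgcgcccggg

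Dusp5 (chr19:53528945-53529095, plus strand): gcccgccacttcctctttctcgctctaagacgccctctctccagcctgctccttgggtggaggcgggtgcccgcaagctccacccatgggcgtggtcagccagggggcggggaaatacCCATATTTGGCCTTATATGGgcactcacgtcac

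Dusp2 (chr2:127335959-127336109, plus strand): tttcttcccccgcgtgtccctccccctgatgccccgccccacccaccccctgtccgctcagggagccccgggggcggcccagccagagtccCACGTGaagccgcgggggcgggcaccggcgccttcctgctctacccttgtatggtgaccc

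In the Dusp1 sequence the capitals mark the cyclic AMP response element TGACGTCA at -143 to -136 and the E-box CACGTG at -126 to -121. In the Dusp5 sequence they mark 2 adjacent CArG boxes, the core of the serum response element, at -82 to -73 and -72 to -63, and in the Dusp2 sequence an E-box at -109 to -104. Both strands were searched over the 300 bases from 250 before to 50 after each start. The cyclic AMP response element was in 1.79% of all 32851 promoters of that length, the CArG box in 1.63% and the E-box in 7.15%. The shorter core TGACG, which the full element contains, was in Dusp1, Dusp2 and Dusp5 and in 20.8% of all promoters. Outside the full element it is left in lower case, at -191 to -187 in Dusp1 and -55 to -51 in Dusp5. In Dusp2 it lies at 6 to 10 after the start, past the printed stretch. The ETS site CCGGAA (14.9% of all promoters) and the nuclear receptor hexamer AGGTCA (16.3%) were found in Spry2 only among the 8, and the AP-1 site TGANTCA (7.81%) and the TATA box TATAAA (13.6%) in none of them. The GC content of the 8 promoters lay between 57.3% and 72.3%, above the median of 52.7% over all promoters. The entry for Spred1, at 72.3%, ends at base 117121120, ahead of the annotated gene start at 117121374. The bases after its start were not found in an annotated Spred1 transcript, so this start is uncertain. The Dusp5 stretch also lies within an annotated exon of AC137853.2, an antisense transcript on the opposite strand.

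The libraries were prepared with QuantSeq, which reads a short tag near the polyadenylated 3′ end of each transcript, so the values are not per length and are compared below within a gene only. The samples held between 12473391 and 18609482 reads on genes. Nr2f6 was at 0 reads in all 9 Nr2f6-/- samples and between 20.2 and 201 normalized counts in the 9 Nr2f6+/+ samples. All 8 T-cell markers, among them Cd3e and Lck, were detected in every group. With IgG2b their sum ranged from 52074 to 59158 normalized counts in Nr2f6+/+ and from 62529 to 67453 in Nr2f6-/- samples. With anti-PD-L1 it ranged from 56376.5 to 82518 in Nr2f6+/+ and from 75128 to 90954 in Nr2f6-/- samples. The 6 melanocyte markers summed to between 736 and 7137 over all samples. All 5 tested were lower in Nr2f6-/- than in Nr2f6+/+ under either antibody, with 0 called, and their part was not tested. All 13 macrophage markers were detected in every group other than Nr2f6-/- with anti-PD-L1, where Arg1 was at 0. The summed macrophage level ranged from 15460 to 19043 in Nr2f6+/+ with IgG2b, from 9393 to 12906 in Nr2f6-/- with IgG2b, from 1513 to 6673 in Nr2f6+/+ with anti-PD-L1 and from 860.1 to 2603 in Nr2f6-/- with anti-PD-L1. The platelet markers, 2 of 3 detected in Nr2f6+/+ with IgG2b and Itga2b at 0 there, also summed highest in that group, between 2300.3 and 2611 against at most 703 in the other 15 samples. The library numbers in the sample labels form 2 sets, and the 6 libraries of the second set are replicates 4 to 6 of either genotype under anti-PD-L1.

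Dusp1 was the member with the largest change between the antibody groups and the only one to pass the test there. DUSP1 is a nuclear phosphatase that is induced within minutes of stimulation and inactivates p38, JNK and ERK, and its gene lies on chromosome 17 (26505590 to 26562128, minus strand, GRCm38). This annotated span of 56539 bases takes in 6 transcripts, and the promoter printed above lies inside it. The level of Dusp1 was 4565, 6791 and 5822 normalized counts in the 3 Nr2f6+/+ samples with IgG2b and 7427, 8860.4 and 7365 in the 3 Nr2f6-/- samples with IgG2b. With anti-PD-L1 it was 2021, 1729, 1642, 1855, 2211 and 3089 in Nr2f6+/+ and 3283, 4063, 5143, 3982, 2497 and 3197 in Nr2f6-/- samples. The lowest IgG2b sample of each genotype lay above every anti-PD-L1 sample of that genotype, a separation in this direction shown by 3.22% of all tested genes in Nr2f6+/+ and 3.15% in Nr2f6-/- mice. The order of the group levels, from high to low, was Nr2f6-/- with IgG2b at 7884 ± 846 (SD, n = 3), Nr2f6+/+ with IgG2b at 5726 ± 1116 (SD, n = 3), Nr2f6-/- with anti-PD-L1 at 3694 ± 913 (SD, n = 6) and Nr2f6+/+ with anti-PD-L1 at 2091 ± 529.6 (SD, n = 6). The ranges of Nr2f6+/+ with IgG2b and Nr2f6-/- with anti-PD-L1 overlapped, as did those of the 2 anti-PD-L1 groups.

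**Figure D1:**
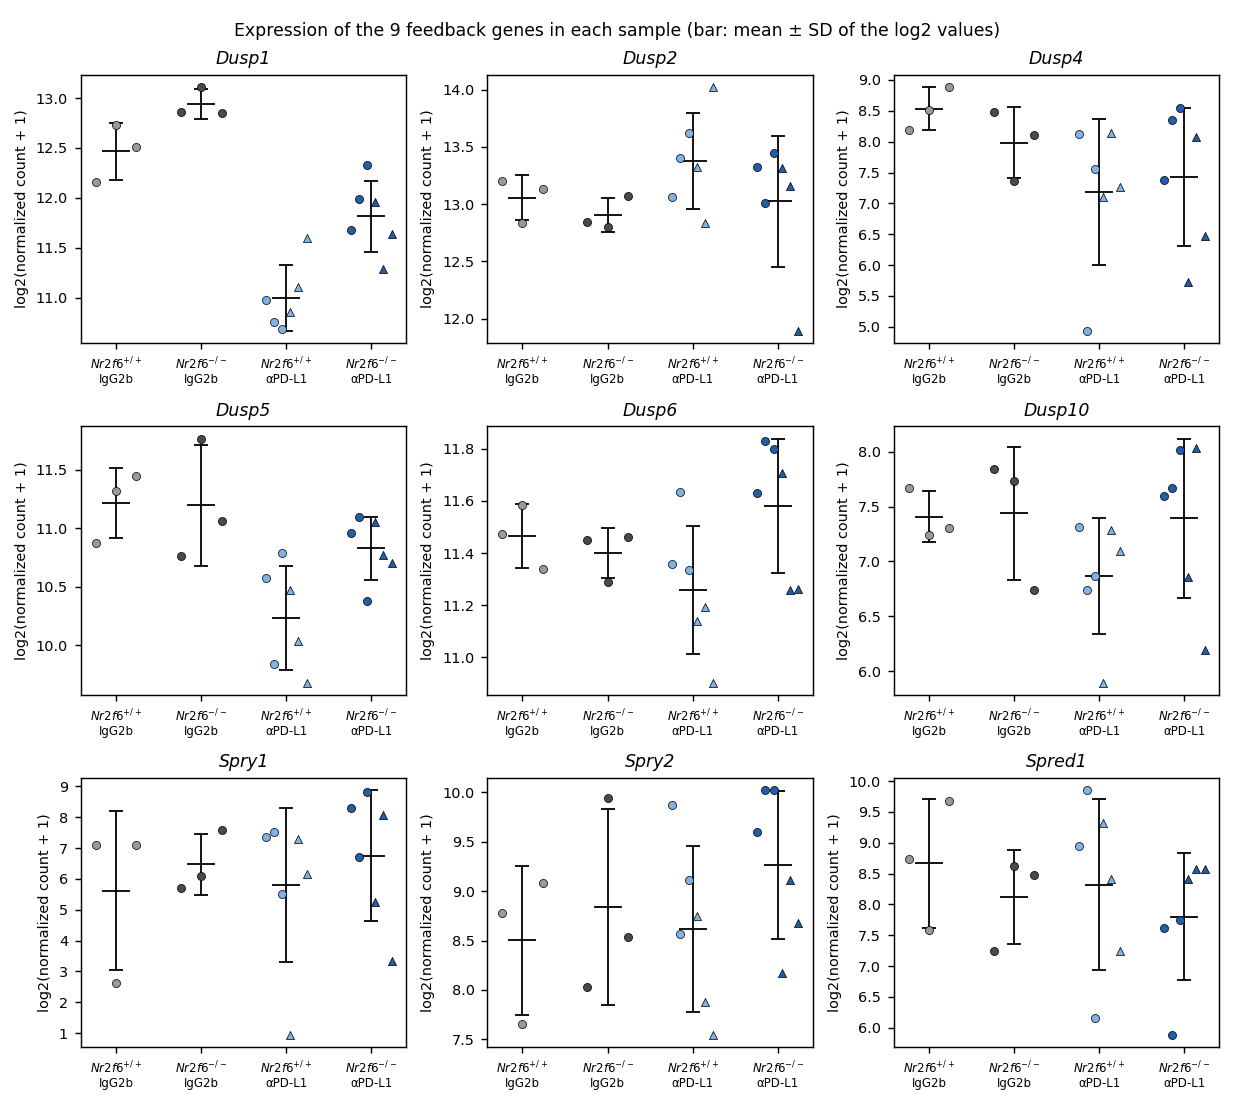
Level of each of the 9 genes in each sample as log2(normalized count + 1) on the vertical axis, by genotype and antibody on the horizontal axis; circles are libraries of the first set, triangles of the second, and the bars give the group mean ± SD of the log2 values. Dusp1 is lower in all 6 anti-PD-L1 samples than in all 3 IgG2b samples of the same genotype, while Spry1 ranges from 0.928 to 182 normalized counts among the 6 Nr2f6+/+ samples with anti-PD-L1.

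PD-L1 blockade in Nr2f6+/+ mice was the first comparison, and it asked how blocking the checkpoint alone altered the transcripts of tumor-infiltrating T cells. Dusp1 was 2.77-fold lower with anti-PD-L1 than with IgG2b, a log2 difference of -1.47 ± 0.22 (SE), and passed the test (limma on log2(normalized count + 1), Benjamini-Hochberg adjusted p = 0.000774 over all tested genes). It was the only one of the 9 members called, in a comparison in which 0.242% of tested genes were called, each of them lower. edgeR and DESeq2 on the recovered reads called Dusp1 as well, with adjusted p = 0.000943 and 1.02e-07. Leaving out each of the 9 samples in turn kept the difference between -1.62 and -1.34, with an adjusted p of at most 0.0369 in limma. In bulk samples such as these, fewer cells of a type and less RNA per cell cannot be told apart. The macrophage markers were lower as well, 13 of 13 with 2 called, and their part in the Dusp1 difference was not tested.

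The same comparison in Nr2f6-/- mice gave the same direction. Dusp1 was 2.18-fold lower with anti-PD-L1, a log2 difference of -1.12 ± 0.22 (SE) with an adjusted p of 0.0146 in limma, and it was again the only member called, against 0.325% of all tested genes and 0.192% called lower. The adjusted p was 0.0216 in edgeR and 0.000206 in DESeq2. The call was lost in limma without the filter on low values (adjusted p = 0.0591), with only the groups compared in the model (0.0882), and without replicate 1, 2 or 3 of the Nr2f6-/- IgG2b group (0.0712, 0.122 and 0.072), while the difference stayed at or below -0.94 in every setting run. In the first library set alone, which holds 3 samples of each group, it was -0.94 with an adjusted p of 0.118. All 13 macrophage markers were lower here too, with 2 called. The difference between the genotypes in the effect of anti-PD-L1 on Dusp1 was 0.34 ± 0.32 (SE) on the log2 scale, with an adjusted p of 0.985 in limma. Its 95% confidence interval of -0.30 to 0.99 holds no difference, a weaker effect in Nr2f6-/- mice and, at its lower end, a stronger one.

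The comparison of Nr2f6-/- with Nr2f6+/+ mice under anti-PD-L1, which asks what loss of NR2F6 adds to the blockade, left Dusp1 close to the threshold. Dusp1 was 1.76-fold higher in Nr2f6-/- samples, a log2 difference of 0.82 ± 0.18 (SE), with an adjusted p of 0.054 in limma and 0.0584 in edgeR, and of 0.00204 in DESeq2, the tool of the study. The 6 samples of each group used here are more than the legend of the study's RNA-seq figure gives for its anti-PD-L1 groups. Of all tested genes, limma called 0.175%, edgeR 0.183% and DESeq2 1.57%. Among the members limma and edgeR called 0 and DESeq2 called Dusp1, and 2 members had an unadjusted p under 0.05 in limma, Dusp1 and Dusp5, as had 9.73% of all tested genes. The 2 library sets are given separately, and the difference between them was not tested. In the first set the 3 Nr2f6-/- samples were at 3283, 4063 and 5143, above the 3 Nr2f6+/+ samples at 2021, 1729 and 1642, and the log2 difference was 1.19 (adjusted p = 0.0219, limma). In the second set the Nr2f6-/- samples at 3982, 2497 and 3197 overlapped the Nr2f6+/+ samples at 1855, 2211 and 3089, and the difference was 0.44 (adjusted p = 0.779, limma). With each of the 12 samples left out in turn the adjusted p in limma lay between 0.0168 and 0.135, and 2 of the 12 runs passed the threshold, those without replicate 5 of the Nr2f6-/- group (0.0195) and without replicate 6 of the Nr2f6+/+ group (0.0168). The highest value was that without replicate 3 of the Nr2f6-/- group.

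With IgG2b, where loss of NR2F6 is seen without blockade, the 3 Nr2f6-/- samples were all above the 3 Nr2f6+/+ samples for Dusp1. Dusp1 was the only member whose groups did not overlap, a pattern shown in the same direction by 6.1% of all tested genes. The log2 difference was 0.47 ± 0.26 (SE) with an adjusted p of 0.939 in limma, which called 0% of tested genes in this comparison. No member was called by edgeR (0% of all tested genes) or DESeq2 (0.75%) and none had an unadjusted p under 0.05 in limma (5.35%). The summed macrophage markers were lower in Nr2f6-/- than in Nr2f6+/+ samples with IgG2b, and their part in the Dusp1 difference was not tested. The combination, Nr2f6-/- with anti-PD-L1, was set against Nr2f6+/+ with IgG2b as the wild-type control, and Dusp1 differed by -0.65 ± 0.22 (SE; adjusted p = 0.229, limma), with 0 members called by limma, edgeR or DESeq2 and 1 with an unadjusted p under 0.05. Of all tested genes, 0.617%, 0.342% and 1.51% were called by limma, edgeR and DESeq2 in this comparison, and 9.04% had an unadjusted p under 0.05.

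**Figure D2:**
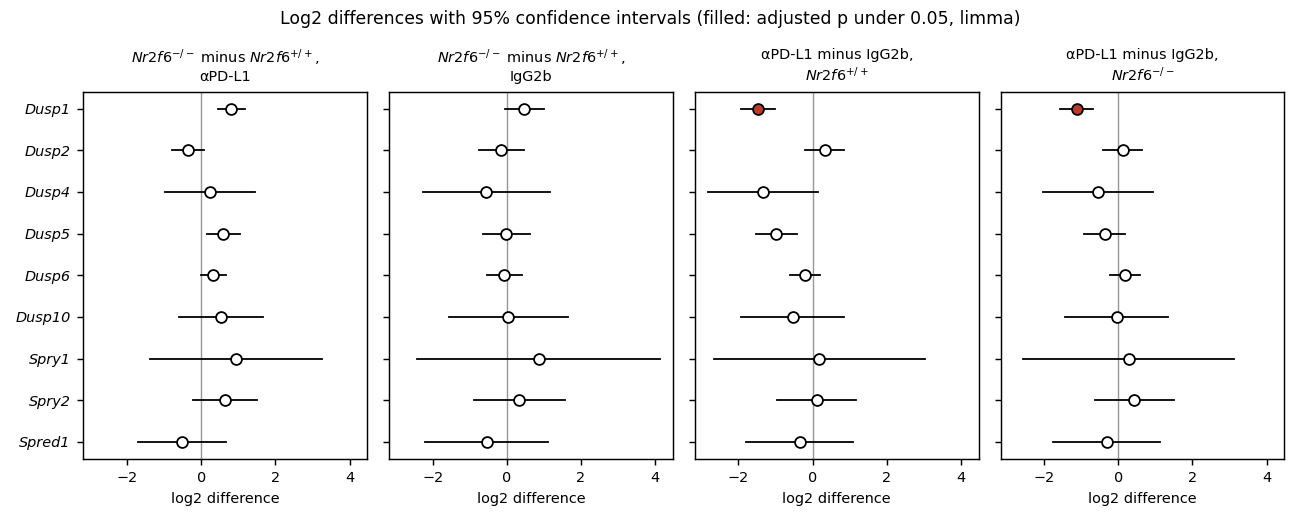
Log2 difference in each of the 9 genes (vertical axis) in 4 comparisons, with points for the estimate on log2(normalized count + 1), lines for the 95% confidence interval and filled points for an adjusted p under 0.05 in limma. The filled points are Dusp1 at -1.47 and -1.12 for anti-PD-L1 against IgG2b in either genotype, and the intervals are widest for Spry1.

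**Figure D3:**
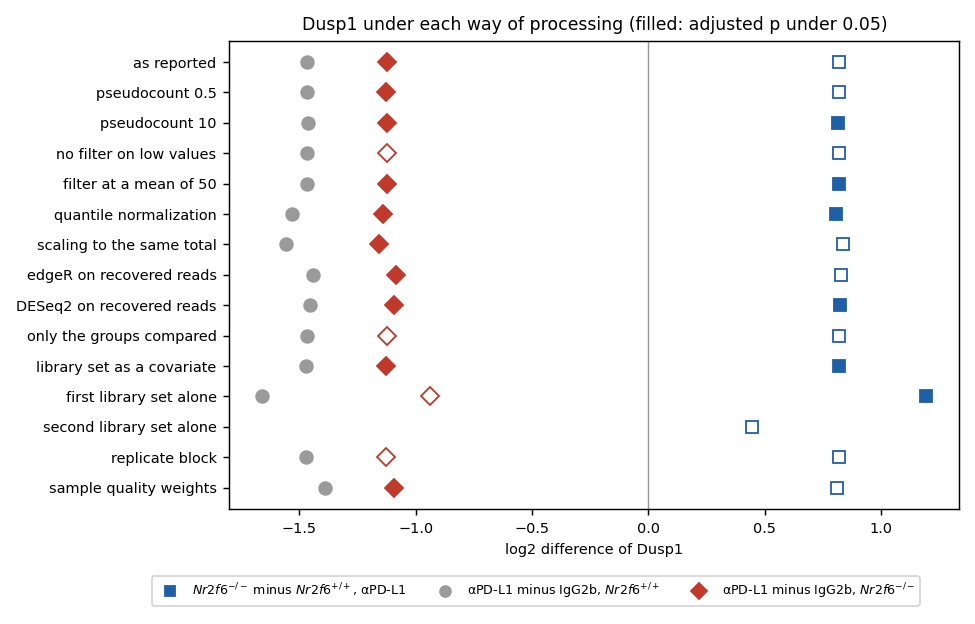
Log2 difference of Dusp1 (horizontal axis) in 3 comparisons under the reported processing and each alternative (vertical axis), with filled symbols for an adjusted p under 0.05. The difference with anti-PD-L1 in Nr2f6+/+ mice is past the threshold in each row that has a value and lies between -1.66 and -1.39, whereas the difference between the genotypes under anti-PD-L1 lies between 0.44 and 1.19 and is past it in 6 of 14 alternatives.

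Dusp5 was the nearest to Dusp1 in its pattern over the groups. DUSP5 is a nuclear phosphatase specific for ERK, which it also retains in the nucleus, and its gene lies on chromosome 19 (53529109 to 53542431, plus strand). Its level was 1876, 2555 and 2782 normalized counts in Nr2f6+/+ and 1732, 3481 and 2138 in Nr2f6-/- samples with IgG2b. With anti-PD-L1 it was 1526, 918, 1767, 1419, 1047 and 819 in Nr2f6+/+ and 1986, 2189, 1328, 2127, 1751 and 1670.1 in Nr2f6-/- samples. In Nr2f6+/+ mice all 6 anti-PD-L1 samples lay below the 3 IgG2b samples, whereas the antibody groups of the Nr2f6-/- mice overlapped, as did the genotypes under either antibody. The log2 difference with anti-PD-L1 was -0.98 ± 0.27 (SE) in Nr2f6+/+ mice (unadjusted p = 0.00106, adjusted p = 0.164, limma) and -0.37 ± 0.27 (SE) in Nr2f6-/- mice (adjusted p = 0.718, limma), and neither passed the test. Under anti-PD-L1 the Nr2f6-/- samples were 1.51-fold above the Nr2f6+/+ samples, a log2 difference of 0.60 ± 0.22 (SE; unadjusted p = 0.0112, adjusted p = 0.355, limma), which missed the threshold as well. With IgG2b the difference was -0.016 ± 0.31 (SE).

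Dusp4 was the other member whose Nr2f6+/+ groups did not overlap, so that 3 of 9 members were lower without overlap, as were 3.22% of all tested genes. DUSP4 is a nuclear phosphatase of ERK, JNK and p38, encoded on chromosome 8 (34807297 to 34819894, plus strand), 36.6 Mb from Nr2f6 on the same chromosome. Its level was 292, 366 and 473 normalized counts with IgG2b and 279, 29.6, 187, 136, 282 and 154 with anti-PD-L1 in Nr2f6+/+ samples. In Nr2f6-/- samples it was 356, 163 and 276 with IgG2b and 166, 326, 372, 51.9, 269 and 88.2 with anti-PD-L1. The Nr2f6-/- samples with IgG2b lay within the range of those with anti-PD-L1. The log2 difference with anti-PD-L1 in Nr2f6+/+ mice was -1.34 ± 0.72 (SE; adjusted p = 0.753, limma), and the confidence interval of -2.83 to 0.14 covers both no difference and a fall as large as that of Dusp1. In Nr2f6-/- mice it was -0.56 ± 0.72 (SE), and the genotypes differed by 0.24 ± 0.59 (SE) under anti-PD-L1 and by -0.55 ± 0.84 (SE) with IgG2b.

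Dusp2 and Dusp6 showed neither separation of the groups nor a difference past the test in any of the 6 comparisons. DUSP2 is a nuclear phosphatase known from activated T cells, and its gene lies on chromosome 2 (127336159 to 127338376, plus strand). Its level was 9433, 7312 and 8958 normalized counts in Nr2f6+/+ and 7349.6, 7133 and 8618 in Nr2f6-/- samples with IgG2b. With anti-PD-L1 it had a lowest value of 7309, a median of 10534 and a highest of 16682 in Nr2f6+/+ samples and a lowest value of 3801, a median of 9680.2 and a highest of 11143 in Nr2f6-/- samples. The IgG2b samples overlapped the anti-PD-L1 samples in both genotypes, and the direction with anti-PD-L1 was upward in both genotypes, by 0.32 ± 0.26 (SE) on the log2 scale in Nr2f6+/+ and 0.12 ± 0.26 (SE) in Nr2f6-/- mice, opposite in sign to Dusp1 and Dusp5. Between the genotypes Dusp2 differed by -0.35 ± 0.21 (SE) under anti-PD-L1 (95% confidence interval -0.78 to 0.075; adjusted p = 0.622, limma).

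DUSP6 is the cytoplasmic phosphatase specific for ERK, and its transcript is a widely used readout of ERK activity; the gene lies on chromosome 10 (99263231 to 99267489, plus strand). Dusp6 was the steadiest member, with a residual SD of 0.22 on the log2 scale within groups, at percentile 1.78 of all tested genes. It was 2845, 3067 and 2590.3 normalized counts in Nr2f6+/+ and 2793, 2499.9 and 2815 in Nr2f6-/- samples with IgG2b. With anti-PD-L1 it had a lowest value of 1911, a median of 2458 and a highest of 3179.9 in Nr2f6+/+ samples and a lowest value of 2445, a median of 3257 and a highest of 3639 in Nr2f6-/- samples. All 4 groups overlapped. With anti-PD-L1 the log2 difference was -0.21 in Nr2f6+/+ (95% confidence interval -0.62 to 0.21) and 0.18 in Nr2f6-/- mice (-0.23 to 0.60), so a fall of the size measured for Dusp1 lay outside both intervals. Under anti-PD-L1 the genotypes differed by 0.32 ± 0.17 (SE; adjusted p = 0.538, limma).

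DUSP10 acts on JNK and p38 rather than on ERK and restrains cytokine production by T cells, and its gene lies on chromosome 1 (184013302 to 184075636, plus strand). Dusp10 ranged from 150.1 to 203 normalized counts in Nr2f6+/+ with IgG2b, from 106 to 228 in Nr2f6-/- with IgG2b, from 58.5 to 158 in Nr2f6+/+ with anti-PD-L1 and from 72.2 to 261 in Nr2f6-/- with anti-PD-L1. The ranges overlapped in every comparison. Its log2 difference between the genotypes under anti-PD-L1 was 0.53 ± 0.55 (SE; adjusted p = 0.801, limma), with an interval of -0.61 to 1.66.

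The Sprouty and Spred genes varied widely within groups, and their groups overlapped in all comparisons. Sprouty proteins are membrane-associated inhibitors of Ras and Raf activation that are themselves induced by ERK, and SPRED1 brings neurofibromin, which inactivates Ras, to the membrane. Spry1 on chromosome 3 was 137, 5.21 and 136 normalized counts in Nr2f6+/+ and 51.4, 67.8 and 193 in Nr2f6-/- samples with IgG2b, and 165, 182, 45, 0.928, 154 and 70.4 in Nr2f6+/+ and 313, 103, 453, 37, 271 and 9.02 in Nr2f6-/- samples with anti-PD-L1. Single samples within 3 of the 4 groups were thus more than 10 times apart, and the residual SD of 2.22 on the log2 scale placed Spry1 at percentile 80 of all tested genes. Its genotype difference under anti-PD-L1 was 0.95 ± 1.13 (SE) with a 95% confidence interval of -1.37 to 3.26, so neither direction could be detected at this spread.

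Spry2, on chromosome 14, was 437, 200.1 and 542 normalized counts in Nr2f6+/+ and 261, 984 and 369.5 in Nr2f6-/- samples with IgG2b. With anti-PD-L1 it was 934, 377 and 552 in the first and 428, 234 and 186 in the second library set of Nr2f6+/+ samples. In Nr2f6-/- samples it was 776, 1035 and 1035 in the first and 287, 551 and 409 in the second set. The log2 difference with anti-PD-L1 was 0.12 ± 0.52 (SE) in Nr2f6+/+ and 0.43 ± 0.52 (SE) in Nr2f6-/- mice. Over the alternatives it ran from 0.025 to 0.70 and from 0.34 to 1.04, never called. The groups overlapped, and the genotype difference under anti-PD-L1 was 0.65 ± 0.43 (SE; adjusted p = 0.655, limma). Spred1, on chromosome 2, was 425, 191 and 819 in Nr2f6+/+ and 151, 395 and 356 in Nr2f6-/- samples with IgG2b, and had a lowest value of 70, a median of 415 and a highest of 919.6 in Nr2f6+/+ and a lowest value of 58.2, a median of 276 and a highest of 381 in Nr2f6-/- samples with anti-PD-L1. These groups overlapped as well, and Spred1 was, with Dusp2, 1 of the 2 members with a lower level in Nr2f6-/- under anti-PD-L1, at a log2 difference of -0.52 ± 0.58 (SE; adjusted p = 0.821, limma).

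Over the 9 members, 7 were above and 2 below 0 in the comparison of the genotypes under anti-PD-L1, with a median log2 difference of 0.53, while the median of all tested genes was -0.0049. With IgG2b the median of the members was -0.016 against -0.064 for all tested genes. With anti-PD-L1 against IgG2b it was -0.35 against -0.10 in Nr2f6+/+ mice, with 6 of 9 below 0, and -0.046 against -0.043 in Nr2f6-/- mice, with 5 of 9 below 0. The comparisons share samples, and these counts describe the list only. The test of the difference in treatment effect between genotypes called 0 members in limma, edgeR and DESeq2, with 0 at an unadjusted p under 0.05. Of all tested genes, limma and edgeR called 0% and DESeq2 0.648%, and 4.97% had an unadjusted p under 0.05.

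The members did not vary as 1 group. Over the 18 samples the highest Pearson's r between log2 values of 2 members was 0.67 for Dusp10 with Spry1 (Spearman's rho 0.47), followed by 0.65 for Dusp1 with Dusp5 (rho 0.64) and 0.56 for Dusp4 with Dusp10 (rho 0.59). After the group means were subtracted, Dusp10 with Spry1 stayed at 0.70 and Dusp4 with Dusp10 at 0.53, whereas Dusp1 with Dusp5 fell to -0.18, so the latter likeness lay in the group levels and not in the samples within groups. Dusp6 reached at most 0.37 with any member, and Spred1 did not exceed -0.01 with any of the 8 others. These 18 points share their groups and libraries and are given as a description.

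**Figure D4:**
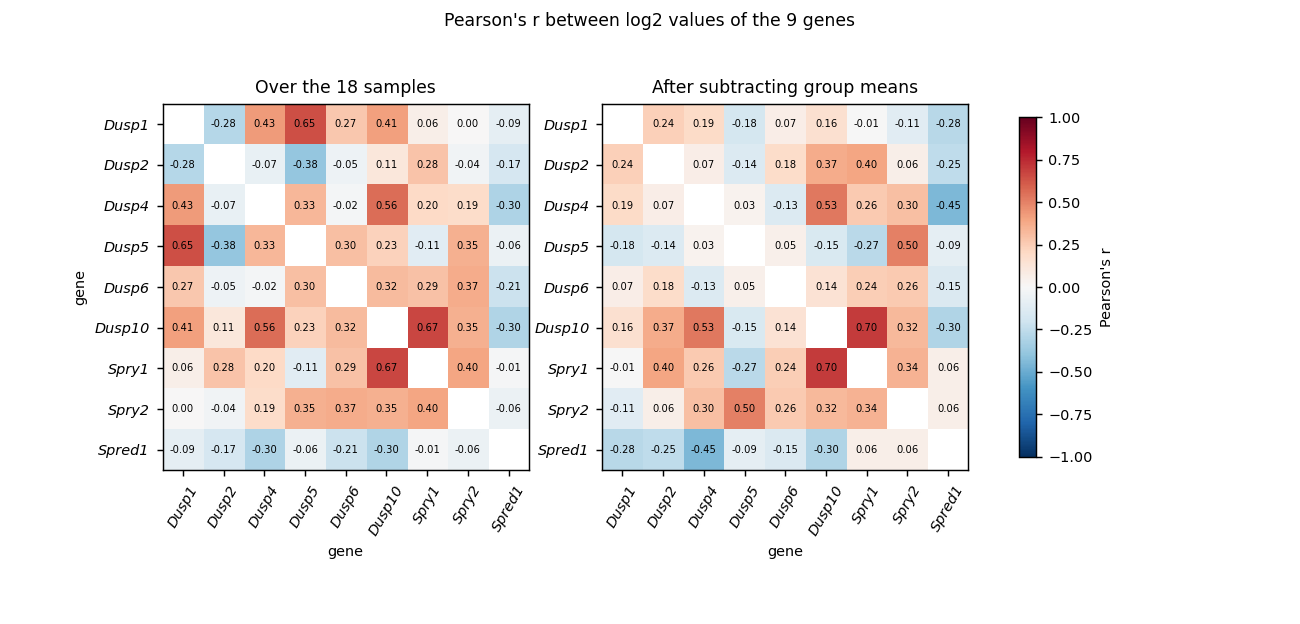
Pearson's r between the log2 values of each pair of the 9 genes over the 18 samples (left) and after subtracting the mean of each of the 4 groups (right), with red for positive and blue for negative values. Dusp10 with Spry1 is at 0.67 and 0.70, and Dusp1 with Dusp5 at 0.65 and -0.18.

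Among all other tested genes, the 2 whose log2 values followed Dusp1 most closely over the 18 samples were Nfkbiz (r = 0.89, rho = 0.87), an inhibitor-like regulator of NF-κB targets, and Gm24497 (r = 0.87, rho = 0.85). Within groups these fell to 0.36 and 0.31, so the likeness again lay mainly in the group levels. Dusp5 was most like Ncstn (r = 0.86), the gene of a γ-secretase subunit, and Tnfaip3 (r = 0.82), the gene of the NF-κB inhibitor A20. For Dusp2 these were Ptch1 (0.82) and Psd4 (0.82), for Dusp4 Atf5 (0.89) and Pan2 (0.85), and for Dusp6 Rpl27-ps3 (0.85) and Arf6 (0.82). Tsc1, which encodes a restraint on mTOR, was among the closest to both Dusp10 (r = 0.82, with Bcl3 at 0.79) and Spry1 (r = 0.80, with Ahcyl2 at 0.81). Spry2 was closest to Prpf38a (0.79) and Zfhx2 (0.76), and Spred1 to Zfp428 (0.85) and Nudt5 (0.79). Each was picked as the highest over all tested genes outside the 9, and the 18 points share groups, libraries and depth.

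The other transcripts of the pathway were examined as lists. The list of ERK-induced transcripts, of which 19 of 21 were tested, held 4 genes that fell with anti-PD-L1 in Nr2f6+/+ mice and 2 that fell in Nr2f6-/- mice, where 0.242% and 0.325% of all tested genes were called. The list also counted factors through which ERK acts, SRF and those of the ELK family, beside transcripts that it induces. Nr4a1, an orphan nuclear receptor induced by antigen receptor signals, was 4697, 3721 and 5735 normalized counts with IgG2b and had a lowest value of 851, a median of 1382 and a highest of 1985 with anti-PD-L1 in Nr2f6+/+ samples. In Nr2f6-/- samples it was 7468, 7358 and 5549 with IgG2b and had a lowest value of 1095, a median of 2100.5 and a highest of 3972 with anti-PD-L1. The antibody groups did not overlap in either genotype, and the log2 differences were -1.74 ± 0.32 (SE; adjusted p = 0.00927, limma) and -1.74 ± 0.32 (SE; adjusted p = 0.0104, limma). With anti-PD-L1, the Nr2f6-/- samples were at 3972, 3129 and 2588 in the first library set and 1613, 1095 and 1154 in the second. The Nr2f6+/+ samples were at 1390, 1985 and 1246 in the first and 851, 1374 and 1807 in the second. All IgG2b samples are of the first set, and the part of the library set was not tested.

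Fosl2, a subunit of the AP-1 transcription factor, followed the same order. It was 3423, 4002 and 6387 normalized counts with IgG2b and had a lowest value of 1107, a median of 1459 and a highest of 2164 with anti-PD-L1 in Nr2f6+/+ samples, a log2 difference of -1.58 ± 0.30 (SE; adjusted p = 0.0115, limma). In Nr2f6-/- samples it was 5362, 10094 and 5956 with IgG2b and had a lowest value of 1240.1, a median of 2314 and a highest of 4203 with anti-PD-L1, a difference of -1.50 ± 0.30 (SE; adjusted p = 0.0146, limma). Neither pair of groups overlapped. Fos, the founding AP-1 subunit, was 923, 1411 and 782 with IgG2b and had a lowest value of 70.3, a median of 162 and a highest of 273 with anti-PD-L1 in Nr2f6+/+ samples, a log2 difference of -2.69 ± 0.52 (SE), the largest of the 4 falls (adjusted p = 0.013, limma). In Nr2f6-/- samples Fos was 317, 676 and 1175 with IgG2b against a lowest value of 175, a median of 217 and a highest of 458 with anti-PD-L1, and the difference of -1.29 ± 0.52 (SE) missed the threshold (adjusted p = 0.385, limma).

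Egr1, an immediate-early zinc finger factor, was the 1 listed transcript called between the genotypes. With IgG2b it was 4956, 5505 and 7539 in Nr2f6+/+ and 3761, 6025 and 5749 in Nr2f6-/- samples. With anti-PD-L1 it had a lowest value of 1724, a median of 2273 and a highest of 3748 in Nr2f6+/+ and a lowest value of 3468, a median of 5809.6 and a highest of 6749 in Nr2f6-/- samples, which overlapped at their edges. Egr1 was lower with anti-PD-L1 in Nr2f6+/+ mice, with a log2 difference of -1.28 ± 0.26 (SE; adjusted p = 0.0169, limma), differed by 0.016 ± 0.26 (SE) with anti-PD-L1 in Nr2f6-/- mice (adjusted p = 0.995, limma), and under anti-PD-L1 was 2.11-fold higher in Nr2f6-/- than in Nr2f6+/+ mice, by 1.08 ± 0.21 (SE; adjusted p = 0.0197, limma). The difference of its treatment effect between genotypes was 1.30 ± 0.36 (SE) with an unadjusted p of 0.00123 and an adjusted p of 0.755 in limma, which does not pass. Over the list, 15 of 19 transcripts were below 0 with anti-PD-L1 in Nr2f6+/+ mice (median -0.50 against -0.10 for all tested genes) and 14 of 19 in Nr2f6-/- mice (median -0.63 against -0.043). In the same comparisons 13 of 13 macrophage markers were lower in either genotype, with 2 called in each, and 15 of 17 stress transcripts had differences below 0, with 0 called by limma in either, and the part of both in the falls of Nr4a1, Fosl2, Fos and Egr1 was not tested. Fosb had the largest genotype difference of the list under anti-PD-L1, 1.75 ± 1.08 (SE), and Phlda1 the lowest, -0.96 ± 0.56 (SE), and neither was called.

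**Figure D5:**
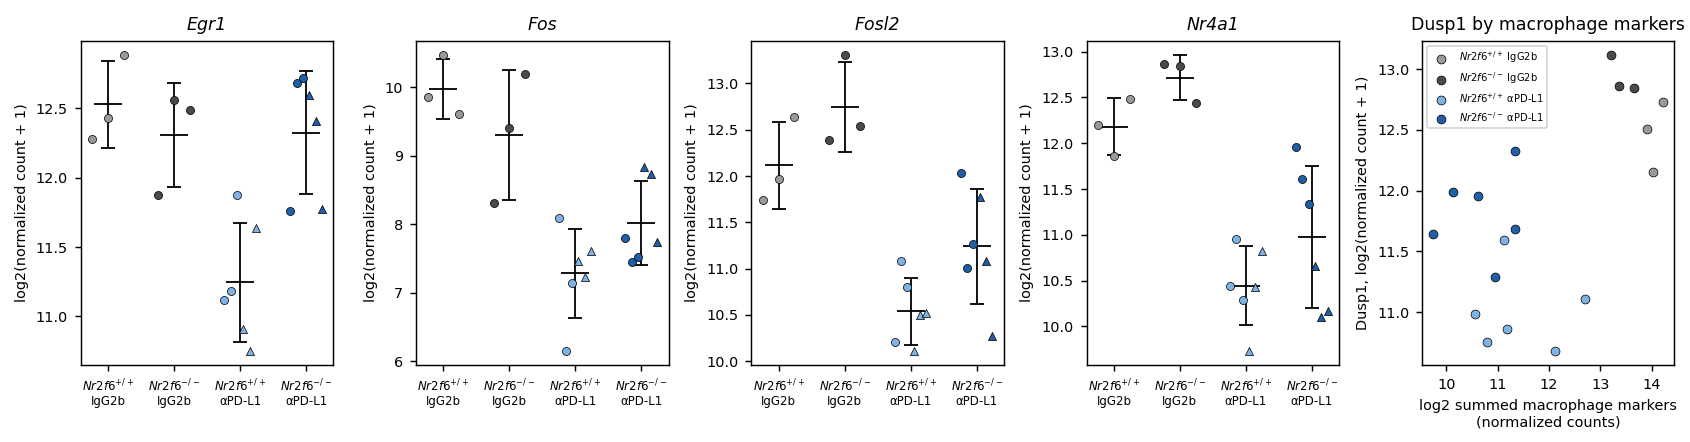
Level of the 4 called ERK-induced transcripts in each sample as log2(normalized count + 1) by genotype and antibody, with the group mean ± SD (circles first, triangles second library set), and Dusp1 against the log2 of the summed macrophage markers in the last panel. Nr4a1 and Fosl2 are lower in every anti-PD-L1 sample than in every IgG2b sample of the genotype. In the last panel the 3 Nr2f6-/- IgG2b samples lie above the 3 Nr2f6+/+ IgG2b samples for Dusp1 and to their left, at lower macrophage sums. The relation between Dusp1 and these sums was not tested.

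Transcripts of cell stress and tissue dissociation, such as Jun, Atf3 and the heat shock genes, were a further list, because Dusp1, Fos and Egr1 also respond to handling of the tissue. All 17 were tested, and 15 of 17 were below 0 with anti-PD-L1 in both genotypes, with medians of -0.67 in Nr2f6+/+ and -0.61 in Nr2f6-/- mice against -0.10 and -0.043 for all tested genes, of which 42.6% and 47.1% were above 0. limma and edgeR called 0 of them in either genotype, where edgeR called 0.158% and 0.3% of all tested genes. The unadjusted p in limma was under 0.05 for 8 and 9 of the 17, and for 7.24% and 9.7% of all tested genes. DESeq2 called 3 in Nr2f6+/+ mice (Jun, Zfp36 and Btg2) and 0 in Nr2f6-/- mice, against 0.801% and 1.96% of all tested genes. The part of these transcripts in the Dusp1 difference was not tested. Between the genotypes under anti-PD-L1, 10 of the 17 were above 0 and 7 below. The unadjusted p in limma was under 0.05 for 5 of the 17 there, and for 9.73% of all tested genes. The highest and lowest of the list in that comparison were Klf4 at 1.46 ± 1.28 (SE) and Hspa1a at -1.0 ± 0.45 (SE), neither of them called. The part of these transcripts in the genotype difference of Dusp1 was not tested either.

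The remaining 5 lists covered other DUSP genes, other Sprouty and Spred genes, the Ras to ERK cascade, the p38 and JNK cascade, and further inhibitors of Ras and ERK. Of their 73 tested genes limma and edgeR called 0 in each of the 6 comparisons and DESeq2 called 1, Dusp14, with anti-PD-L1 in Nr2f6-/- mice, where it called 1.96% of all tested genes. An unadjusted p under 0.05 in limma was found between the genotypes for 8 of the 73 (11%) under anti-PD-L1, against 9.73% of all tested genes, and for 4 (5.48%) with IgG2b, against 5.35%. With anti-PD-L1 it was found for 4 (5.48%) in Nr2f6+/+ mice, against 7.24%, and for 9 (12.3%) in Nr2f6-/- mice, against 9.7%, so the shares lay near those of all tested genes. Among the 13 other DUSP genes tested, 6 were higher and 7 lower in Nr2f6-/- than in Nr2f6+/+ under anti-PD-L1, between Dusp22 at 1.47 ± 1.0 (SE) and Dusp3 at -2.11 ± 1.27 (SE). Of the other Sprouty and Spred genes, the 2 that could be tested were Spry4 at -2.14 ± 1.33 (SE) and Spred2 at -0.66 ± 1.35 (SE). In the Ras to ERK cascade, from adaptors to the kinases, the values ran from -0.84 ± 1.32 (SE) for Rasgrp4 to 1.36 ± 0.55 (SE) for Rras2. In the p38 and JNK cascade they ran from -1.21 ± 1.32 (SE) for Map3k8 to 2.62 ± 1.20 (SE) for Map2k6, a kinase of p38. Among the further inhibitors, Pebp1, which binds Raf, was at -0.72 ± 0.28 (SE) and Errfi1, a feedback inhibitor of the EGF receptor, at 0.90 ± 0.66 (SE). None of these passed the test.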

How the data were processed

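Per the labels and the study's methods, the authors trimmed reads with Cutadapt and Trimmomatic, aligned them to mm10 by STAR and then Bowtie2, and counted per gene by HTSeq. The deposited value of a gene is a signal: its reads were scaled by the size factor of the sample (a normalized count). Each sample has its own column, and whether cells of several mice were combined in a sample is not stated. Versions, annotation and strand setting are not given in the sources used here, so overlapping genes are uncertain. Dusp1, Dusp5, Dusp10 and Spry1 have overlapping annotated genes, none within the last 1 kb of the gene. Values were whole multiples of 1 step per column (tolerance 0.01 reads), which returned reads for edgeR and DESeq2. A count of 3 reads was between 2.46 and 3.64 normalized counts, and such floors cover counting error only.

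The main test was limma (version 3.58.1, R 4.3.3) on log2(normalized count + 1), for the 11992 genes averaging 10 or more. It used 4 group means in 1 model, the trend option, two-sided Benjamini-Hochberg adjusted p-values and a threshold of 0.05. For low genes the log2 differences can be understated or overstated. Nr2f6 between the genotypes under anti-PD-L1 was at -6.19 in limma and -9.57 in edgeR. Dusp3 with anti-PD-L1 against IgG2b in Nr2f6-/- mice was at -3.01 in limma and -1.69 in edgeR. The study used DESeq2, run here (1.42.0) with edgeR (4.0.16) as alternatives. The labels do not say which samples came from separate mice, so p-values measure the spread between these samples. Of 36 pairs within groups, 0 held identical values. Same-numbered samples of different groups did not deviate together (21 pairs, r between -0.029 and 0.037, 0 over 0.1), so the numbers were not taken to pair them.

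The members and lists were chosen with earlier results of these data known. Named are the members, Nr2f6, each listed gene past the threshold, the highest and lowest genotype difference of each list under anti-PD-L1 and the 2 genes most correlated with each member. Spry3 was listed but is not analysed here. Alternatives covered pseudocounts of 0.5 and 10, no filter or a mean of 50, quantile and total scaling, library sets, sample weights, a replicate block, only the groups compared, and leaving out each sample. The scripts were tested on simulated data.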

Additional observations from a re-analysis of the deposited data

Results flagged for a closer look

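In the groups of 6, single samples were compared with the other 5 by their gap relative to the range of the log2 values (Dixon's criterion), which chance alone meets in about 1 of 20 groups; 26 groups were examined and 4 samples met it, each on the low side, whereas on the normalized counts 0 of the 26 groups held a sample that met it. Dusp2 was 3801 normalized counts in replicate 6 of Nr2f6-/- with anti-PD-L1, while the other 5 samples lay between 8237 and 11143. Dusp4 was 29.6 in replicate 2 of Nr2f6+/+ with anti-PD-L1, against 136 to 282 in the others. Spry1 was 0.928 in replicate 4 of Nr2f6+/+ with anti-PD-L1, against 45 to 182, and that value is below the floor of 3 reads. Spred1 was 58.2 in replicate 2 of Nr2f6-/- with anti-PD-L1, against 196 to 381. The 4 samples are 4 different libraries, and without the sample concerned the log2 difference between the genotypes under anti-PD-L1 was -0.13 for Dusp2, -0.21 for Dusp4, -0.023 for Spry1 and -0.13 for Spred1, none of them called.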

How the results depend on the processing

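The count of called members moved in 2 of the 6 comparisons, and in each case the gene concerned was Dusp1. Between the genotypes under anti-PD-L1 it went from 0 to 1 with a pseudocount of 10, a mean of at least 50, quantile normalization, DESeq2, the library set as covariate and the first library set alone (adjusted p between 0.00204 and 0.0496), and over the 12 samples left out in turn it lay between 0 and 1. For anti-PD-L1 against IgG2b in Nr2f6-/- mice it went from 1 to 0 without the filter, with only the groups compared, in the first library set and with the replicate block (log2 difference -1.13, adjusted p = 0.0527), and it lay between 0 and 1 over the 9 samples left out in turn. The block, for replicate numbers that share only a number, changed no other call of a member. The IgG2b groups hold 3 samples each, and the second library set could not be used for them because it holds anti-PD-L1 samples only. The listed genes called moved in DESeq2 from 0 to 1 for the other DUSP genes with anti-PD-L1 in Nr2f6-/- mice (Dusp14), from 0 to 1 for the ERK-induced transcripts between Nr2f6-/- with anti-PD-L1 and Nr2f6+/+ with IgG2b (Fos), and from 0 to 3 for the stress transcripts with anti-PD-L1 in Nr2f6+/+ mice. The 2 genes most like each member over deviations from the group means shared 0 genes for Dusp1, Dusp6, Dusp10 and Spry1, 1 for Dusp2, Dusp4, Dusp5 and Spry2 and 2 for Spred1 with those over the samples. The cause of these changes was not tested.

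Differences that were not called changed sign under some settings, given as log2 values. Between the genotypes under anti-PD-L1, Dusp4 was -0.75 with the second library set, and Spred1 was 0.20 with the second library set. Between the genotypes with IgG2b, Dusp10 was -0.0065 with scaling to the same total and -0.056 with sample weights, and Dusp5 was 0.033 with edgeR, 0.027 with DESeq2 and 0.039 with sample weights. For anti-PD-L1 against IgG2b in Nr2f6+/+ mice, Spry1 was -0.013 with sample weights. For anti-PD-L1 against IgG2b in Nr2f6-/- mice, Dusp10 was 0.041 with quantile normalization, 0.022 with edgeR, 0.0092 with DESeq2, 0.19 with the library set as covariate, 0.32 with the first library set, 0.19 with the replicate block and 0.089 with sample weights, and Dusp4 was 0.11 with the first library set. Between Nr2f6-/- with anti-PD-L1 and Nr2f6+/+ with IgG2b, Dusp10 was 0.14 with quantile normalization, 0.12 with edgeR, 0.11 with DESeq2, 0.22 with the library set as covariate, 0.35 with the first library set, 0.22 with the replicate block and 0.033 with sample weights, and Dusp2 was 0.055 with edgeR, 0.039 with DESeq2, 0.077 with the library set as covariate, 0.20 with the first library set, 0.077 with the replicate block and 0.0031 with sample weights. In the difference of the treatment effect between the genotypes, Spry1 was -0.50 with quantile normalization, and Spred1 was -0.072 with edgeR, -0.063 with DESeq2 and -0.68 with the first library set, and Dusp2 was 0.050 with the first library set. With each sample left out in turn, the members that changed sign in at least 1 run were as follows. Between the genotypes under anti-PD-L1, the range was -0.21 to 0.58 for Dusp4 and -0.023 to 1.63 for Spry1. Between the genotypes with IgG2b, the range was -0.30 to 0.20 for Dusp5, -0.17 to 0.38 for Dusp10, -0.22 to 0.73 for Spry2 and -0.63 to 1.60 for Spry1. For anti-PD-L1 against IgG2b in Nr2f6+/+ mice, the range was -1.30 to 1.16 for Spry1, -0.31 to 0.41 for Spry2 and -0.89 to 0.16 for Spred1. For anti-PD-L1 against IgG2b in Nr2f6-/- mice, the range was -0.39 to 0.19 for Dusp10, -0.14 to 0.96 for Spry1 and -0.75 to 0.066 for Spred1. Between Nr2f6-/- with anti-PD-L1 and Nr2f6+/+ with IgG2b, the range was -0.14 to 0.19 for Dusp2, -0.14 to 0.23 for Dusp10 and -0.36 to 1.88 for Spry1. In the difference of the treatment effect between the genotypes, the range was -0.88 to 1.58 for Spry1, -0.088 to 0.87 for Spry2, -0.48 to 0.57 for Spred1 and -0.31 to 0.024 for Dusp2.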
